A study of Homo sapiens with 9 samples.

Results

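YAP1 and WWTR1 (TAZ), the transcriptional coactivators at the end of the Hippo pathway, were examined together with their DNA-binding partner TEAD1, the target genes CYR61, CTGF and ANKRD1, and the target genes that encode regulators of the pathway, AMOTL1, AMOTL2, LATS2 and AJUBA. These 10 genes were taken by symbol from a table of 56809 genes, and all 10 were found in it. The table holds estimated counts from bulk sequencing of polyadenylated RNA in 9 libraries of the established human breast cancer line MDA-MB-468. Each library was made from 200000 harvested cells. Infection was with empty pSicoR in 3 libraries (control), with the hairpin shLMO2-1 in 3 and with the hairpin shLMO2-2 in 3, where pSicoR is a lentiviral vector for short hairpin RNAs and LMO2 is a LIM-domain transcriptional cofactor. No other allele or agent is named for any group. All libraries come from a single line, and the labels do not say whether the 3 libraries of a group were separate infections, so the p-values measure only the spread between these libraries.

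In the Hippo pathway, the kinases STK3 and STK4 (MST2 and MST1) with their scaffold SAV1 activate LATS1 and LATS2, which phosphorylate YAP and TAZ and thereby keep them in the cytoplasm and promote their breakdown. YAP and TAZ that reach the nucleus bind DNA through TEAD factors, often beside AP-1 sites, and raise genes such as CTGF, CYR61 and ANKRD1. LATS2, AMOTL2 and AJUBA are also targets, so the pathway feeds back on itself. In basal-like breast cancer cells such as MDA-MB-468, YAP and TAZ are known for roles in growth, attachment and invasion.

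CTGF was the only member called changed in the main test described below. Its proximal promoter is shown first because it carries several copies of the TEAD core motif. RefSeq promoter windows (GRCh38.p14, 250 bases before to 50 after the transcription start) were found for 8 of the 10 members, and not for TEAD1 or CYR61. The TEAD motif GGAATG and the AP-1 motif TGANTCA were searched on both strands, and no match of one overlapped a match of the other. The CTGF window (listed in RefSeq under its current symbol CCN2) held 3 TEAD matches, which start 169, 104 and 95 bases before the transcription start and are written in capitals in chr6:131951374-131951622, minus strand:
CTGF: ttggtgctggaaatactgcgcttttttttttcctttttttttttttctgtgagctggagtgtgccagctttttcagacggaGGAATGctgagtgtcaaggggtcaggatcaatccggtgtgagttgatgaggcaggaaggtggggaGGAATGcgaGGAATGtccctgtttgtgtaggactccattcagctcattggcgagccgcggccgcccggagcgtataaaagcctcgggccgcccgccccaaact

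The other matches that lie before a start are shown with 12 bases on each side, to set the neighbourhood of the core beside that in CTGF. ANKRD1 held 2 TEAD matches, 220 and 128 bases before its RefSeq start (chr10:90921290-90921319 and chr10:90921198-90921227, minus strand), and was the only member window with an AP-1 match, at 195 bases before the start. The second ANKRD1 match lies inside the longer first exon that GENCODE release 29 gives this gene. YAP1 held 1 match 162 bases before its start (chr11:102110273-102110302, plus strand). THBS1, a target gene outside the 10 that is described below, held 1 match 46 bases before its start (chr15:39581021-39581050, plus strand). VGLL3, a TEAD cofactor gene also outside the 10, held 0 matches of either motif. Capitals mark the TEAD core:
ANKRD1 first: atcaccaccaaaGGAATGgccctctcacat
ANKRD1 second: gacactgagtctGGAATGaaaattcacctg
YAP1: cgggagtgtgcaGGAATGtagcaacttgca
THBS1: gaggaatccccaGGAATGcgagcgcccctt

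LATS2 held a further match 10 bases after its start, so 4 of the 8 member windows held at least 1. Among all 35116 RefSeq promoter windows of this length, 14.0% held at least 1 TEAD match, 1.37% at least 2 and 0.128% at least 3. The AP-1 motif was found in 7.71% of them. A match describes the letters in the window and not a bound site.

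**Figure D1:**
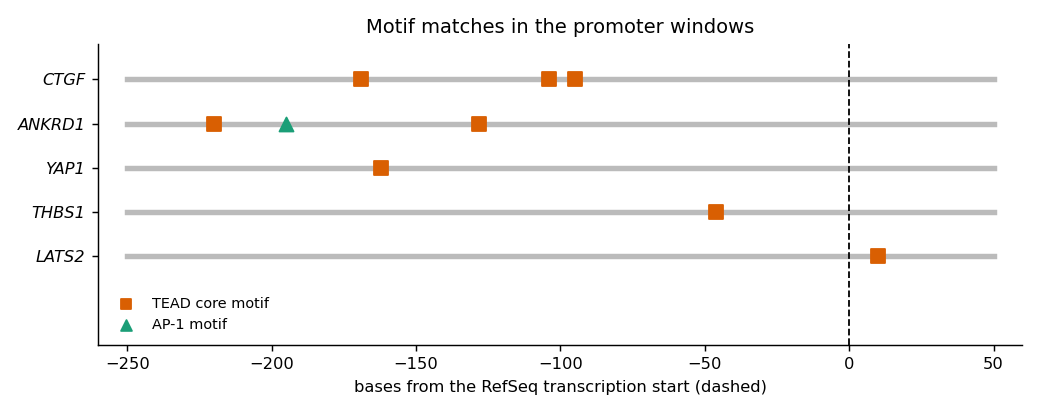
Positions of TEAD core (squares) and AP-1 (triangle) motif matches in RefSeq promoter windows, as the first base of each match in bases from the transcription start (dashed line). CTGF has 3 TEAD matches and ANKRD1 has 2 with 1 AP-1 match, while YAP1, THBS1 and LATS2 have 1 TEAD match each.

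Library totals ran from 15494486 to 23069455 counts, with the shLMO2-2 libraries the deepest. LMO2, the hairpins' target, had 4, 35 and 19 counts in the control libraries, 2, 1 and 6 with shLMO2-1 and 1, 4 and 3 with shLMO2-2. Control replicate 1 therefore lay within the range of the hairpin libraries for LMO2 counts, and over all genes it differed from the other controls by a chi-square of 25.2 and 17.2 per gene, against 6 between those 2. In both hairpin groups, replicates 1 and 3 were the widest pair, at 12.22 with shLMO2-1 and 12.45 with shLMO2-2. The other hairpin pairs ran from 4.79 to 7.51. Against control, LMO2 differed by -2.44 on the log2 scale with shLMO2-1 (edgeR adjusted p = 0.0907) and by -3.02 with shLMO2-2 (edgeR adjusted p = 0.0441). The latter call was lost without control replicate 2 or 3, shLMO2-1 replicate 1 or 2 or any shLMO2-2 library (adjusted p up to 0.138), with limma-voom (adjusted p = 0.0929) and in the fit of only the 2 groups compared (adjusted p = 0.062), and the former was gained without control replicate 1 (adjusted p = 0.0268), with no filter (adjusted p = 0.0253) and with a replicate block (adjusted p = 0.0417). EPCAM, CDH1, KRT5, KRT17, KRT18 and EGFR, which mark epithelial and basal-like tumour cells, averaged between 317 and 5471 CPM (counts scaled to a common library total) in control. PGR and COL3A1 had 0 counts in all 9 libraries, and the leukocyte and endothelial markers PTPRC and PECAM1 averaged 0.127 and 0.272 CPM in control. Over the 9 libraries PTPRC ran from 0.0449 to 0.348 CPM and PECAM1 from 0.180 to 1.05 CPM. The other 3 of 7 markers listed as absent from the line were also detected, at 9.48 to 17.1 CPM for COL1A1 (a fibroblast collagen), 2.47 to 6.10 CPM for ESR1 (the oestrogen receptor) and 0.793 to 2.61 CPM for CDH5 (an endothelial cadherin) over the 9 libraries. The summed level of these 7 ran from 15.6 to 22.9 CPM in control, 17.7 to 21.2 CPM with shLMO2-1 and 18.3 to 22.0 CPM with shLMO2-2. Of the 6 epithelial and basal-like markers, 2 were called with shLMO2-1, where KRT5 fell by 0.27 on the log2 scale (edgeR adjusted p = 0.0272) and EGFR rose by 0.46 (edgeR adjusted p = 0.0123). With shLMO2-2 1 was called, KRT18, which rose by 0.48 (edgeR adjusted p = 0.0134), and between the hairpins 1, KRT5, higher with shLMO2-2 by 0.35 (edgeR adjusted p = 0.0362). Over all tested genes 8.42%, 8.97% and 0.768% were called in these contrasts. The summed level of the 6 ran from 10661 to 12152 CPM in control, 12558 to 13305 CPM with shLMO2-1 and 11624 to 12948 CPM with shLMO2-2. Their part in the results was not tested.

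All 10 members passed the filter on low counts, which left 14709 genes to test. A gene was called changed at a Benjamini-Hochberg adjusted p under 0.05 over all tested genes in edgeR's quasi-likelihood F-test. With shLMO2-1 against control, 1 of 10 members was called, CTGF, which fell, where the background over all tested genes was 8.42% called, 4.54% higher and 3.88% lower. With shLMO2-2 against control it was again 1 of 10, CTGF, which fell, against a background of 8.97%, 4.94% higher and 4.04% lower. Between the hairpins it was also CTGF alone, lower with shLMO2-2, where 0.768% of genes were called, 0.347% higher and 0.422% lower. Both hairpins are compared with the same 3 control libraries. The share of members called was near the background for each hairpin against control, so the count alone says nothing about these genes as a set.

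The median log2 fold change of the 10 members was 0.08 with shLMO2-1 against control, -0.01 with shLMO2-2 against control and -0.21 with shLMO2-2 against shLMO2-1. The medians over all tested genes were 0.0009, -0.0002 and -0.0006. Of the 10 members, 8 had a positive sign with shLMO2-1 against control and 4 with shLMO2-2 against control. Between the hairpins 8 of 10 were lower with shLMO2-2, at unadjusted p under 0.05 for 5 of them, but 1 was called. No share of all tested genes by sign or at an unadjusted p is given here. These counts therefore say nothing about the 10 genes as a set.

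Every library of a hairpin lay above all 3 controls for 3 members with shLMO2-1 (ANKRD1, AMOTL2 and AJUBA, against a background of 14.0% of tested genes) and below them for 1 (CTGF, background 14.3%). With shLMO2-2 none of the 10 lay wholly above the controls (background 15.3%), and CTGF and CYR61 lay wholly below (background 14.5%). In the comparison of the hairpins no member lay wholly above with shLMO2-2 (background 8.97%), and 7 of 10 lay wholly below: WWTR1, TEAD1, CTGF, ANKRD1, AMOTL2, LATS2 and AJUBA (background 9.12%). CYR61, which had the same sign, overlapped between the hairpins.

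**Figure D2:**
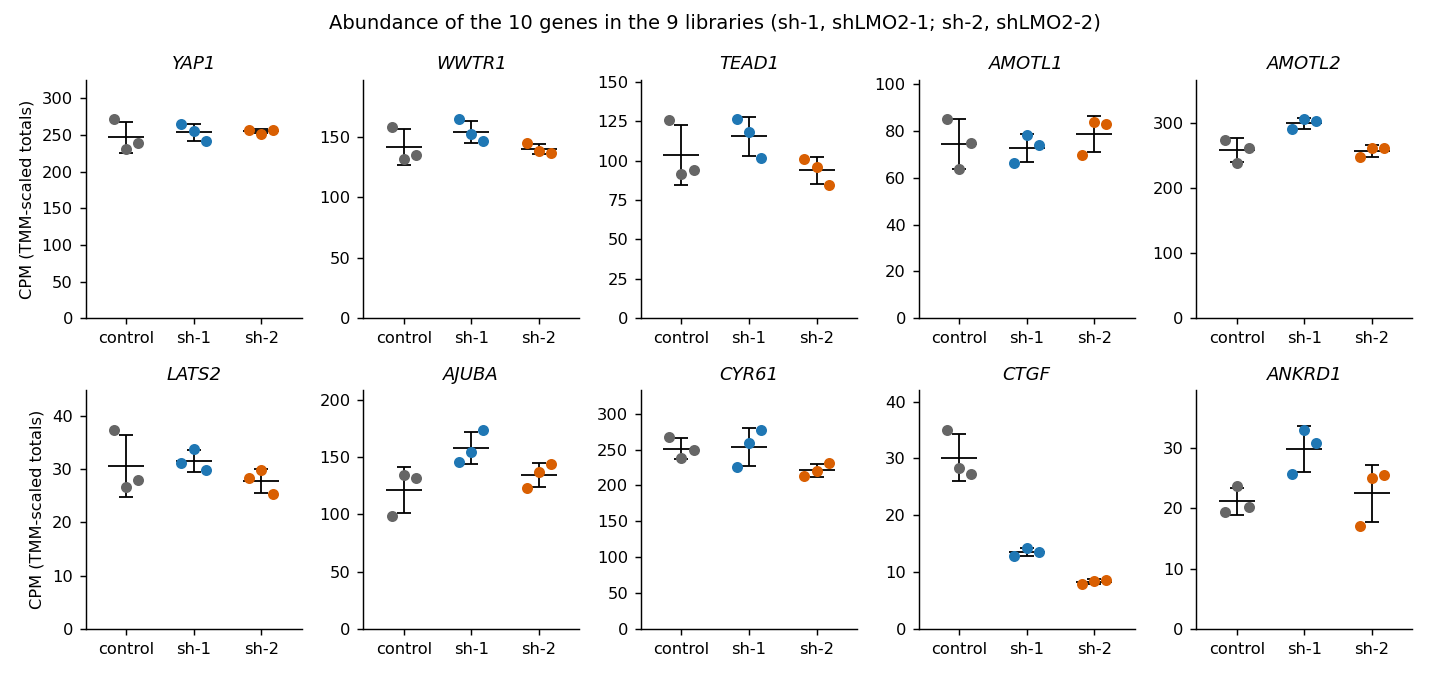
CPM of the 10 genes in each of the 9 libraries (points), with the mean and SD of each group of 3 (bars); each panel has its own axis from 0. CTGF separates the groups without overlap, from 27.2 to 35.0 CPM in control down to 7.91 to 8.58 CPM with shLMO2-2, while YAP1 overlaps in all groups.

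The coactivators and TEAD1 did not pass the test in any contrast. YAP1 (chromosome 11, 102110461 to 102233423, plus strand, GENCODE 29 on GRCh38) had 271, 231 and 239 CPM in control, 265, 255 and 242 CPM with shLMO2-1 and 257, 252 and 257 CPM with shLMO2-2. The highest and the lowest library were both controls, and all groups overlapped. The log2 fold change was 0.04 with shLMO2-1 (95% interval -0.11 to 0.19) and 0.05 with shLMO2-2 (-0.10 to 0.20). At the outer ends of these intervals YAP1 RNA would be 0.926 or 1.15 times the control level. YAP1 was among the steadier genes, with a spread within groups at percentile 16.4 of the tested genes.

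WWTR1 (chromosome 3, 149517235 to 149736714, minus strand) encodes TAZ, the paralog of YAP. It had 158, 131 and 135 CPM in control, 164, 152 and 146 CPM with shLMO2-1 and 145, 139 and 136 CPM with shLMO2-2. Each hairpin overlapped the controls, and all shLMO2-2 libraries lay below all shLMO2-1 libraries. The difference between the hairpins was -0.14 on the log2 scale (95% interval -0.32 to 0.03, edgeR adjusted p = 0.613).

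TEAD1 (chromosome 11, 12674591 to 12944483, plus strand) encodes one of the TEAD factors that carry YAP and TAZ to DNA. Its levels were 126, 91.9 and 93.9 CPM in control, 126, 118 and 102 CPM with shLMO2-1 and 101, 95.9 and 84.6 CPM with shLMO2-2. Control replicate 1 stood with the highest shLMO2-1 library, and the hairpins did not overlap each other. TEAD1 differed between the hairpins by -0.30 (95% interval -0.58 to -0.02, unadjusted p = 0.0354, edgeR adjusted p = 0.406).

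**Figure D3:**
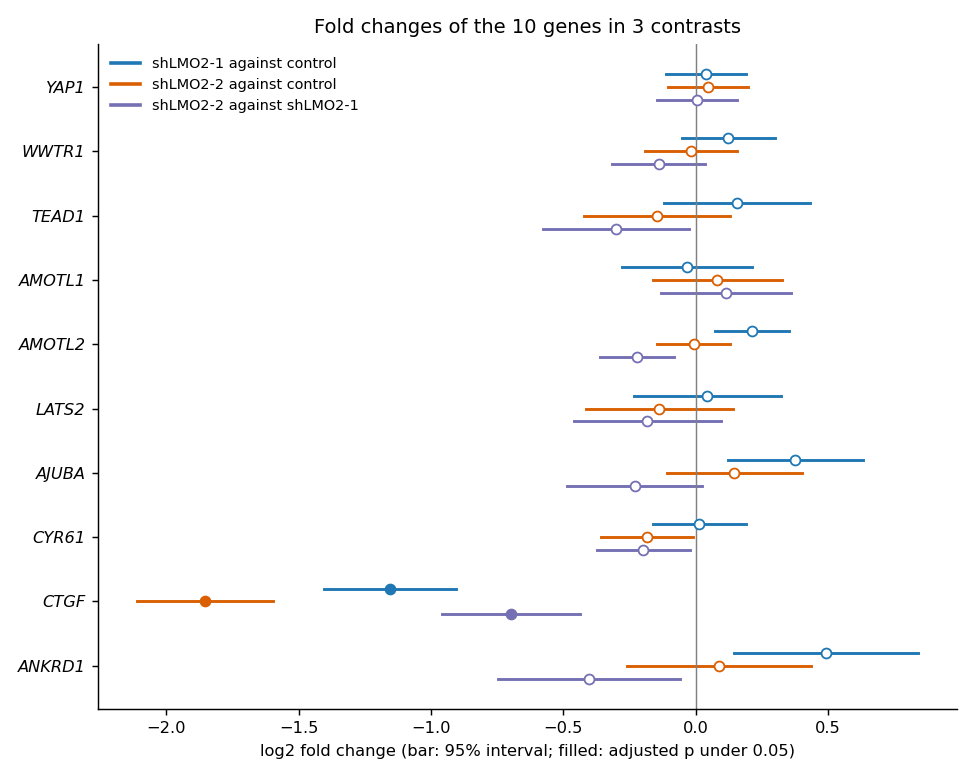
Log2 fold changes of the 10 genes with 95% intervals (bars) in the 3 contrasts, filled where the adjusted p was under 0.05. CTGF alone is filled, at -1.16, -1.85 and -0.70, and the other 27 points lie between -0.40 and 0.49.

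Among the target genes, CTGF (connective tissue growth factor, a secreted matricellular protein of the CCN family) fell with both hairpins and further with shLMO2-2 than with shLMO2-1. The gene lies on chromosome 6 from 131948176 to 131951373 (minus strand). Its estimated counts were 603, 552 and 514 in control, 229, 243 and 204 with shLMO2-1 and 182, 183 and 191 with shLMO2-2. Scaled to the library totals, these were 35.0, 28.3 and 27.2 CPM in control, 12.9, 14.2 and 13.5 CPM with shLMO2-1 and 7.91, 8.49 and 8.58 CPM with shLMO2-2. No library of any group reached the range of another group.

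The group means of CTGF were 30.1 ± 4.21 CPM in control, 13.5 ± 0.683 CPM with shLMO2-1 and 8.33 ± 0.362 CPM with shLMO2-2 (SD, n = 3). Against control, CTGF RNA dropped by 55.1% with shLMO2-1 (log2 fold change -1.16, SE 0.114, edgeR adjusted p = 0.000258) and dropped by 72.3% with shLMO2-2 (log2 fold change -1.85, SE 0.116, edgeR adjusted p = 1.66e-05). Control replicate 1 was the highest control for CTGF, and without it the changes were -1.04 (edgeR adjusted p = 0.000198) and -1.74 (edgeR adjusted p = 1.33e-05). Both of these calls held in all 18 alternative settings and left-out libraries.

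The difference between the hairpins, -0.70 on the log2 scale (SE 0.119, 95% interval -0.96 to -0.44, edgeR adjusted p = 0.0247), passed the threshold with all libraries. It was lost without any 1 of the 6 hairpin libraries. Leaving out shLMO2-1 replicate 1, 2 or 3 gave an edgeR adjusted p of 0.0667, 0.142 or 0.0675. Leaving out shLMO2-2 replicate 1, 2 or 3 gave 0.112, 0.0997 or 0.0881. Its size stayed between -0.73 and -0.66 in these and the 3 fits without a control library. An antisense gene, AL133346.1, overlaps CTGF, and the sources used here do not state whether strand was used in counting, but it held at most 3 counts in a library and at most 1.09% of the CTGF count of the same library.

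CYR61 (CCN1), the close relative of CTGF that is used beside it as a marker of YAP and TAZ output, did not share this change. It lies on chromosome 1 from 85580761 to 85583962 (plus strand). It had 267, 238 and 249 CPM in control, 225, 260 and 277 CPM with shLMO2-1 and 213, 221 and 231 CPM with shLMO2-2. The shLMO2-1 libraries spanned the controls, and the shLMO2-2 libraries lay just below them. The log2 fold change was 0.01 with shLMO2-1 (95% interval -0.16 to 0.19, edgeR adjusted p = 0.942) and -0.18 with shLMO2-2 (-0.36 to -0.01, edgeR adjusted p = 0.181). Neither interval reached the fold change of CTGF in the same contrast.

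Per kilobase of the longest protein-coding transcript, CTGF stood at 12.8%, 11.6% and 10.7% of the CYR61 level in the 3 control libraries. It stood at 5.60%, 5.37% and 4.75% with shLMO2-1, and at 3.64%, 3.77% and 3.64% with shLMO2-2. This ratio, taken within each library, does not depend on how libraries were scaled to each other, and the 3 groups did not overlap in it.

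ANKRD1, a nuclear ankyrin-repeat protein first known from heart muscle and a strong YAP target, lies on chromosome 10 from 90912096 to 90921276 (minus strand). It had 19.4, 23.7 and 20.2 CPM in control, 25.6, 32.9 and 30.8 CPM with shLMO2-1 and 17.0, 25.0 and 25.4 CPM with shLMO2-2. All shLMO2-1 libraries lay above the controls and above all shLMO2-2 libraries, whereas the shLMO2-2 libraries spanned the controls. Its sign with shLMO2-1 was opposite to that of CTGF: the log2 fold change was 0.49 (SE 0.158, 95% interval 0.15 to 0.84), and it missed the threshold (edgeR adjusted p = 0.0802). It was called with DESeq2 (adjusted p = 0.0351), with no filter on low counts, with a replicate block (adjusted p = 0.0071) and without shLMO2-2 replicate 1 (adjusted p = 0.0363). With shLMO2-2 the log2 fold change against control was 0.09 (95% interval -0.26 to 0.44).

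The members that act on the pathway itself were led by AMOTL2, an angiomotin-like scaffold that can hold YAP at junctions. AMOTL2 (chromosome 3, 134355874 to 134375479, minus strand) had 274, 239 and 262 CPM in control, 290, 306 and 304 CPM with shLMO2-1 and 247, 262 and 262 CPM with shLMO2-2. The shLMO2-1 libraries lay above every other library. With shLMO2-1 the log2 fold change was 0.21 (SE 0.0632, edgeR adjusted p = 0.0622), and between the hairpins it was -0.22 (SE 0.0631, edgeR adjusted p = 0.183). The former was called with DESeq2 (adjusted p = 0.0233), with a replicate block (adjusted p = 0.039) and without control replicate 1 (adjusted p = 0.0294).

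AJUBA, a LIM-domain protein that restrains LATS kinases at junctions, lies on chromosome 14 from 22971174 to 22982642 (minus strand). It had 98.6, 135 and 132 CPM in control, 146, 155 and 174 CPM with shLMO2-1 and 123, 137 and 144 CPM with shLMO2-2. Control replicate 1 was the lowest of all 9 libraries. The log2 fold change with shLMO2-1 was 0.38 (SE 0.116, edgeR adjusted p = 0.0705), and without control replicate 1 it was 0.24 (adjusted p = 0.107), more than 1.5 times smaller. DESeq2 (adjusted p = 0.0253), the replicate block (adjusted p = 0.00463) and the fit with no filter called it. A protein-coding gene on the same strand, AL132780.3, overlaps AJUBA and held up to 1.98% of the AJUBA count of the same library.

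LATS2, the kinase that phosphorylates YAP and TAZ, and AMOTL1, a second angiomotin-like scaffold, were not called in any contrast. LATS2 (chromosome 13, 20973032 to 21061547, minus strand) had 37.3, 26.6 and 28.0 CPM in control, 31.0, 33.8 and 29.8 CPM with shLMO2-1 and 28.3, 29.8 and 25.3 CPM with shLMO2-2. AMOTL1 (chromosome 11, 94706431 to 94876753, plus strand) had 84.9, 63.8 and 74.8 CPM in control, 66.3, 78.1 and 73.8 CPM with shLMO2-1 and 69.8, 83.6 and 82.9 CPM with shLMO2-2. Both overlapped between each hairpin and control, with 95% intervals of -0.23 to 0.32 and -0.42 to 0.14 for LATS2 and of -0.28 to 0.21 and -0.16 to 0.32 for AMOTL1 with shLMO2-1 and shLMO2-2. Control replicate 1 gave the highest control value for 8 of the 10 members, ANKRD1 and AJUBA being the exceptions. Their RNA per cell cannot be told apart from a change in the share of cells that express them, as in any bulk sample.

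Levels were compared between members per kilobase of transcript in the control libraries. By the longest protein-coding transcript, CYR61 came first at 109.8 ± 6.35 CPM per kilobase, followed by AMOTL2 at 57.2 ± 3.95, YAP1 at 45.8 ± 3.94, AJUBA at 28.5 ± 4.69 and WWTR1 at 28.2 ± 2.90 (SD, n = 3). CTGF at 12.9 ± 1.80, TEAD1 at 12.2 ± 2.24, ANKRD1 at 10.7 ± 1.16, AMOTL1 at 8.30 ± 1.18 and LATS2 at 5.56 ± 1.05 CPM per kilobase completed the order. The neighbours AJUBA and WWTR1, CTGF and TEAD1, and TEAD1 and ANKRD1 overlapped between libraries. By the median transcript length instead, AMOTL2 came first at 331.9 CPM per kilobase, WWTR1 stood at 171 and AJUBA at 162, and CYR61 at 109.8 came after them, since several short transcripts are annotated for the former 3. CTGF, ANKRD1 and LATS2 have a single annotated protein-coding transcript each, so their levels per kilobase do not depend on this choice.

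Paralogs of the members were read next, since TEAD2, TEAD3 and TEAD4 can carry the same coactivators, LATS1 shares the role of LATS2, AMOT that of the AMOTL genes, LIMD1 and WTIP that of AJUBA, and NOV (CCN3) belongs to the CCN family. None of these 8 genes was called by edgeR in any contrast, at an unadjusted p under 0.05 for 2 with shLMO2-1, 1 with shLMO2-2 and 0 between the hairpins. DESeq2 called 0, 1 and 0 of them. Over all tested genes, edgeR called 8.42%, 8.97% and 0.768% in these contrasts, and DESeq2 called 1749, 1837 and 316 of 14709. No share of all genes at an unadjusted p is given here. TEAD2 was the nearest to a call, at 84.5, 102 and 100.4 CPM in control, 106, 112 and 121 CPM with shLMO2-1 and 107, 117 and 125 CPM with shLMO2-2, and every hairpin library lay above every control. Its log2 fold changes were 0.24 (edgeR adjusted p = 0.13) and 0.29 (edgeR adjusted p = 0.0741).

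Of the 7 TEAD and VGLL genes other than TEAD1, 6 passed the filter. With shLMO2-1 0 were higher and 2 lower, with shLMO2-2 0 were higher and 1 lower, and between the hairpins 1 was higher and 0 lower. The backgrounds called in either direction were 8.42%, 8.97% and 0.768%. The called genes were 2 VGLL cofactors, which bind TEAD factors in competition with or in place of YAP and TAZ. VGLL3 fell from 8.75, 2.82 and 4.60 CPM in control to 0.450, 0.762 and 1.05 CPM with shLMO2-1 and 0.261, 0.418 and 0.0899 CPM with shLMO2-2. Even the lowest control was above every hairpin library. It rested on 55 to 151 counts in control and on 2 to 16 counts in the hairpin libraries, so the sizes of its changes, -2.84 (SE 0.497, edgeR adjusted p = 0.00689) and -4.36 (SE 0.555, edgeR adjusted p = 0.00137), are loose.

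VGLL4, a repressor of TEAD output, went lower with shLMO2-1 and not with shLMO2-2. It had 36.3, 29.3 and 33.9 CPM in control, 24.6, 24.3 and 22.5 CPM with shLMO2-1 and 37.2, 36.5 and 37.9 CPM with shLMO2-2. The 3 groups did not overlap. The change with shLMO2-1 was -0.48 (SE 0.0924, edgeR adjusted p = 0.0112), that with shLMO2-2 was 0.17 (edgeR adjusted p = 0.284), and the difference between the hairpins was 0.64 (SE 0.0917, edgeR adjusted p = 0.00775). The first was lost without shLMO2-1 replicate 3 (adjusted p = 0.0503), and the difference without shLMO2-1 replicate 2 (adjusted p = 0.0624) or shLMO2-2 replicate 2 (adjusted p = 0.0525). VGLL4 thus differed between the hairpins in the direction opposite to CTGF, and VGLL3 did not pass the test between them (-1.53, edgeR adjusted p = 0.422).

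**Figure D4:**
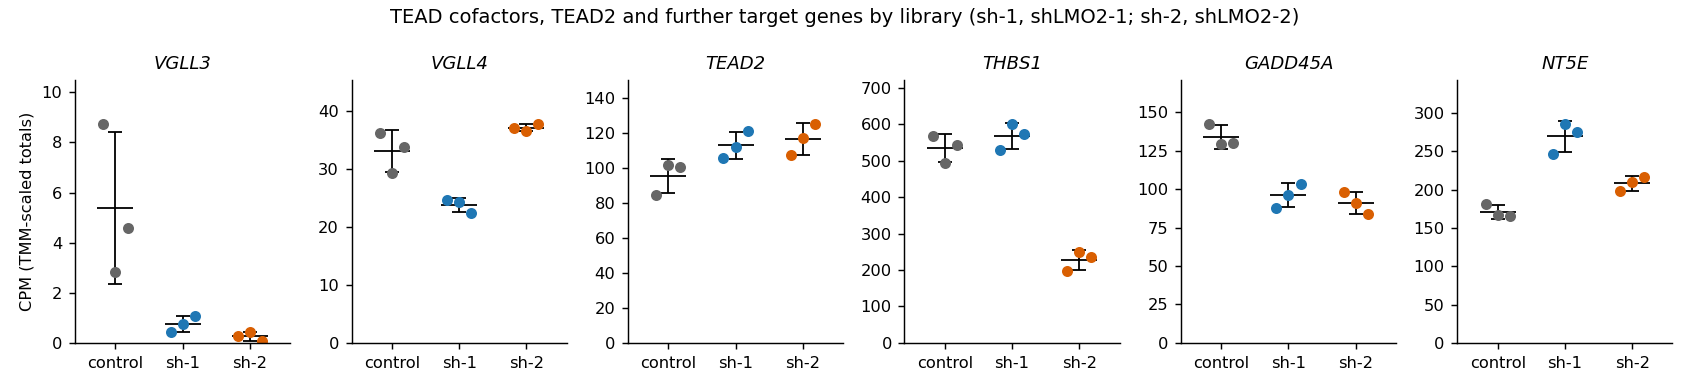
CPM by library (points) with the mean and SD of each group (bars) for VGLL3, VGLL4, TEAD2 and the target genes THBS1, GADD45A and NT5E. THBS1 is low in the 3 shLMO2-2 libraries only, at 198 to 251 CPM, VGLL4 is low in the 3 shLMO2-1 libraries only, at 22.5 to 24.6 CPM, and VGLL3 is low in all 6 hairpin libraries.

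Of 23 upstream Hippo kinases and scaffolds, 21 passed the filter. With shLMO2-1 2 rose and 0 fell, with shLMO2-2 0 rose and 2 fell, and between the hairpins edgeR called 0 (3 at an unadjusted p under 0.05, and 2 by DESeq2). Over all genes, edgeR called 0.768% between the hairpins and DESeq2 called 316 of 14709. No share of all genes at an unadjusted p is given here. The median log2 fold changes of the list were 0.05, -0.08 and -0.11. SAV1, the scaffold of STK3 and STK4, was at 57.3 ± 2.98 CPM in control and 84.7 ± 8.92 CPM with shLMO2-1 (SD, n = 3), a change of 0.56 (SE 0.113, edgeR adjusted p = 0.0128) that was lost without shLMO2-1 replicate 2 or 3 (adjusted p = 0.0569 and 0.0547). NF2 (merlin), which recruits LATS kinases to the membrane, rose by 0.31 with shLMO2-1 (edgeR adjusted p = 0.0381), a call lost without any library other than control replicate 1 (adjusted p up to 0.15), and also with plain totals (adjusted p = 0.0803) and in the fit of only the 2 groups compared (adjusted p = 0.0856).

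MOB1A, the coactivator of LATS kinases, fell by 0.28 with shLMO2-2 (edgeR adjusted p = 0.0204), a call lost without any 1 of the shLMO2-2 libraries (adjusted p up to 0.0693). TAOK3, an upstream kinase, fell by 0.37 with shLMO2-2 (edgeR adjusted p = 0.0381), a call lost without control replicate 1 or 3, shLMO2-1 replicate 2 or shLMO2-2 replicate 2 or 3 (adjusted p up to 0.139). In the fit of only the 2 groups compared, both calls were lost as well (adjusted p = 0.0501 for MOB1A and 0.0521 for TAOK3). The other hairpin gave 0.33 for SAV1 (shLMO2-2, edgeR adjusted p = 0.0941) and -0.15 for MOB1A (shLMO2-1, edgeR adjusted p = 0.174). Both kept the sign of their call and did not overlap the controls there. Over all tested genes, 15.3% lay wholly above control with shLMO2-2 and 14.3% wholly below with shLMO2-1. NF2 at 0.05 with shLMO2-2 (edgeR adjusted p = 0.737) and TAOK3 at -0.009 with shLMO2-1 (edgeR adjusted p = 0.969) overlapped the controls. The share of the list called was near the background of 8.42% and 8.97%, so the counts say nothing about these genes as a set.

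All 13 AMOT, LIM-domain and junction regulators outside the 10 members passed the filter. With shLMO2-1 1 rose and 0 fell. With shLMO2-2 and between the hairpins edgeR called 0 (4 and 0 at an unadjusted p under 0.05, and 0 by DESeq2 in both). The backgrounds called by edgeR in the 3 contrasts were 8.42%, 8.97% and 0.768%. DESeq2 called 1837 of 14709 genes with shLMO2-2 and 316 between the hairpins. No share of all genes at an unadjusted p is given here. The called gene was SCRIB, a cell polarity scaffold, at 38.7 ± 5.14 CPM in control and 51.3 ± 1.88 CPM with shLMO2-1 (SD, n = 3). Its change of 0.41 (SE 0.0977, edgeR adjusted p = 0.0288) was lost without control replicate 2 or any shLMO2-1 library (adjusted p up to 0.0918) and in the fit of only the 2 groups compared (adjusted p = 0.0682).

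Of 21 further YAP and TAZ target genes, 19 passed the filter. With shLMO2-1 1 rose and 1 fell (background 4.54% higher and 3.88% lower). With shLMO2-2 1 rose and 4 fell (background 4.94% and 4.04%), and between the hairpins 0 rose and 2 fell (background 0.347% and 0.422%). The median log2 fold changes were -0.03, -0.23 and -0.19, beside 0.0009, -0.0002 and -0.0006 over all tested genes. This list was chosen with earlier results of these data known, so its counts and medians say nothing about the targets as a set. GADD45A, a growth arrest and DNA damage gene, fell with both hairpins, by 0.48 (SE 0.0823, edgeR adjusted p = 0.00616) and by 0.56 (SE 0.082, edgeR adjusted p = 0.00276). Its controls of 143, 129 and 130 CPM lay above the shLMO2-1 libraries at 87.9, 96.5 and 104 CPM and the shLMO2-2 libraries at 97.8, 90.8 and 83.9 CPM. Both calls held in every fit with a library left out.

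NT5E (CD73), an enzyme of the cell surface that makes adenosine, moved the other way. It had 181, 167 and 165 CPM in control, 247, 286 and 275 CPM with shLMO2-1 and 198, 210 and 217 CPM with shLMO2-2, and the 3 groups did not overlap. It rose by 0.66 with shLMO2-1 (SE 0.0713, edgeR adjusted p = 0.000414) and by 0.29 with shLMO2-2 (SE 0.071, edgeR adjusted p = 0.0327), and the difference was -0.37 (SE 0.0708, edgeR adjusted p = 0.0396). The call with shLMO2-2 was lost without control replicate 2 or 3 or any shLMO2-2 library (adjusted p up to 0.125), with plain totals (adjusted p = 0.0527) and in the fit of only the 2 groups compared (adjusted p = 0.0534). The difference was lost without control replicate 2 or 3, shLMO2-1 replicate 2 or 3 or any shLMO2-2 library (adjusted p up to 0.235).

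THBS1 (thrombospondin-1, a matricellular protein) changed with shLMO2-2 and not with shLMO2-1. It had 567, 493 and 543 CPM in control, 529, 601 and 572 CPM with shLMO2-1 and 198, 251 and 236 CPM with shLMO2-2, so the shLMO2-2 libraries stood apart from both other groups. The log2 fold change was 0.09 with shLMO2-1 (95% interval -0.11 to 0.28, edgeR adjusted p = 0.61) and -1.23 with shLMO2-2 (SE 0.0906, edgeR adjusted p = 3.46e-05), and the difference between the hairpins was -1.31 (SE 0.0908, edgeR adjusted p = 0.000115). These 2 calls held in every fit with a library left out.

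AXL, a receptor tyrosine kinase, fell with shLMO2-2 by 1.19 (edgeR adjusted p = 0.0289) from a low level of 3.03 ± 0.753 CPM in control to 1.32 ± 0.369 CPM (SD, n = 3). EDN1 (endothelin-1) fell with shLMO2-2 by 0.43 (edgeR adjusted p = 0.0448). The AXL call was lost without control replicate 1 or 3 or any shLMO2-2 library (adjusted p up to 0.0839) and in the fit of only the 2 groups compared (adjusted p = 0.0583). The EDN1 call was lost without any library other than control replicate 3 (adjusted p up to 0.152), with limma-voom (adjusted p = 0.0514) and in the fit of only the 2 groups compared (adjusted p = 0.0878).

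In the CCN family outside CYR61 and CTGF, 2 of 4 genes passed the filter and 1 was called, with shLMO2-2 against control (background 8.97%). WISP2 (CCN5), a member that lacks the C-terminal domain of its relatives, rose with shLMO2-2 from 0.290, 0.820 and 0.529 CPM to 1.48, 1.86 and 2.29 CPM, while shLMO2-1 gave 0.619, 0.527 and 0.330 CPM. The change was 1.75 (SE 0.405, edgeR adjusted p = 0.0241) on 5 to 51 counts per library, and it was lost without control replicate 1 or 3 or shLMO2-2 replicate 2 or 3 (adjusted p up to 0.0947).

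**Figure D5:**
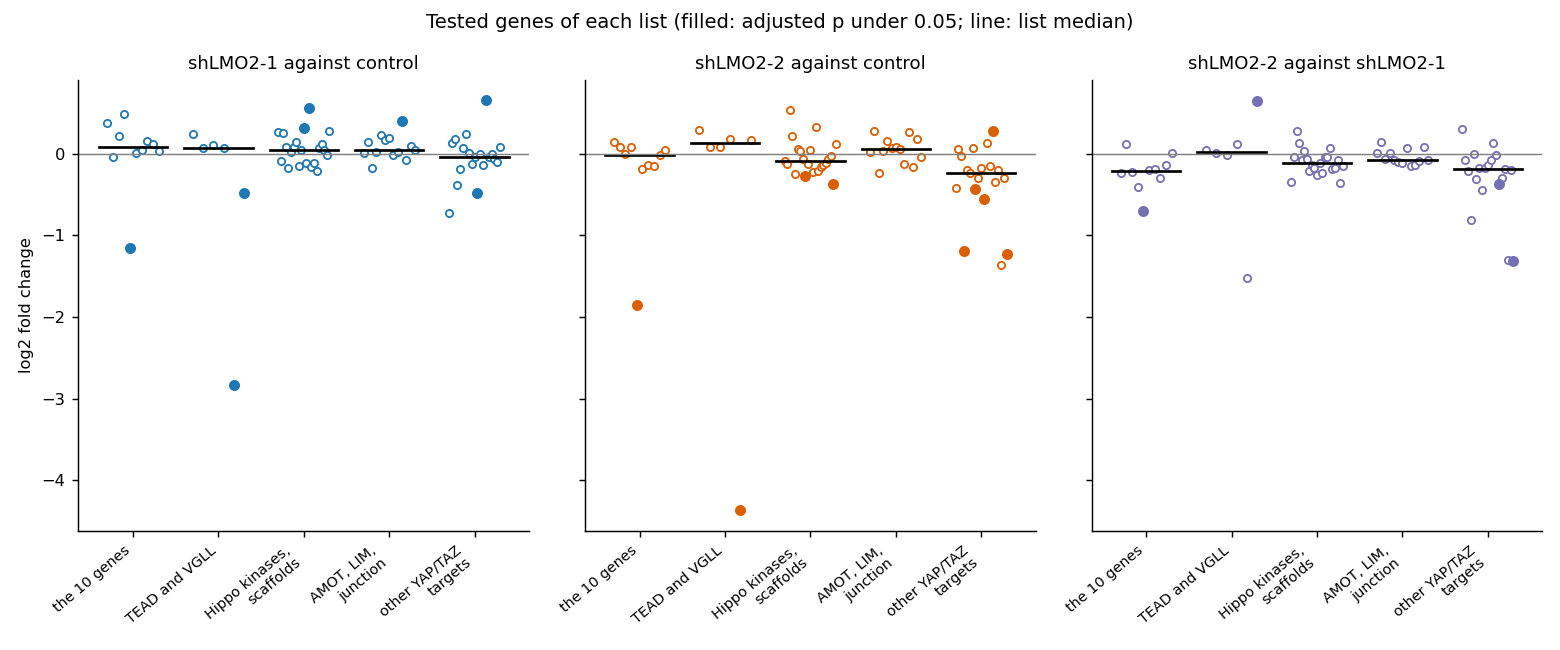
Log2 fold changes of every tested gene of 5 lists in the 3 contrasts, filled where the adjusted p was under 0.05, with the list median as a line. Against control, VGLL3 (-2.84 and -4.36) and CTGF (-1.16 and -1.85) are the lowest called points, and the median of the further targets is -0.03 with shLMO2-1 and -0.23 with shLMO2-2.

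The genes whose levels over the 9 libraries were most like those of CTGF, by Pearson's r of log2 CPM among tested genes with a mean of at least 5 CPM, were GOLPH3 (r = 0.983, Spearman's rho = 1), RAB7B (r = 0.980, rho = 0.983) and PEA15 (r = 0.979, rho = 0.883). The RAB7B level had a similar size of change, with means of 9.26 CPM in control, 3.90 CPM with shLMO2-1 and 2.89 CPM with shLMO2-2. GOLPH3 and PEA15 moved over a smaller range, from 194 to 168 CPM and from 151 to 128 CPM between the means of control and shLMO2-2. For CYR61 the nearest genes were TPD52 (r = 0.933), BRINP2 (r = 0.894) and DYRK2 (r = 0.891), and for YAP1 they were EBLN3P (r = 0.966), LRRC8B (r = 0.962) and ZHX3 (r = 0.961). These values describe 9 libraries in 3 groups that share their group differences and depth, and the genes were ranked among all tested genes for this likeness.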

How the data were processed

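The deposited table holds estimated counts per gene for the 9 libraries, with between 11.67% and 12.81% of a library's values not whole. Per the submitters' processing notes, Salmon 0.12, DESeq2 1.22.2 and GRCh38.p12 were used, with no order or role given; the use of strand is not given in the sources used here. Estimated counts, as the authors deposited them, were rounded to whole numbers. They were tested with edgeR 4.0.16 in R 4.3.3 (TMM scaling, filterByExpr with a minimum count of 10 and total of 15, LMO2 kept, quasi-likelihood fit of 3 groups over all 9 libraries, Benjamini-Hochberg over 14709 genes). These genes hold 99.91% of the counts. CPM uses TMM-scaled totals. The SE of a log2 fold change was taken from its size and F statistic, and 95% intervals from the t quantile at the fit's degrees of freedom. The fit was tested on simulated counts with known changes. No pair of libraries in a group agreed within counting noise.

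Named were the 10 members, LMO2, 8 paralogs, at most 5 called genes per list and contrast with the largest change, and the 3 genes most like YAP1, CYR61 and CTGF. The members and lists were chosen with earlier results of these data known. Coordinates and lengths are from GENCODE 29, matched by symbol, and promoters from RefSeq. Alternatives were other scalings, filters, DESeq2 1.42.0, limma-voom (limma 3.58.1), a replicate block, fits of only 2 groups, a stricter threshold and leaving out each library.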

Additional observations from a re-analysis of the deposited data

Results flagged for a closer look

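Both hairpins were compared with the same controls. Among the members and the pathway, target and CCN family lists, 4 genes differed between the hairpins in edgeR's test of the difference itself. The marker genes were left out of this count, and of these KRT5 was higher with shLMO2-2, at 0.35 (edgeR adjusted p = 0.0362). CTGF was lower with shLMO2-2 than with shLMO2-1 by a log2 difference of -0.70 (adjusted p = 0.0247), although it fell with both. THBS1 was lower with shLMO2-2 by a difference of -1.31 (edgeR adjusted p = 0.000115), and it fell with that hairpin alone. NT5E rose with both and was lower with shLMO2-2 than with shLMO2-1, at -0.37 (edgeR adjusted p = 0.0396). VGLL4 was higher with shLMO2-2, at 0.64 (edgeR adjusted p = 0.00775).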

How the results depend on the processing

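CTGF against control kept its direction and its call under all 18 alternatives for each hairpin, and no called member result changed sign in any of them. With shLMO2-1 against control, 3 members were called with no filter on low counts, where 1680 of 26128 genes were called. DESeq2 called 4 members and 1749 of 14709 genes, and the replicate block called 4 members and 2214 of 14709 genes. With shLMO2-2 against control and between the hairpins, DESeq2 called 1837 and 316 of 14709 genes. Between 1 and 2 members were called with shLMO2-1 when a library was left out. The gain came without control replicate 1 (AMOTL2, with 1397 of 14972 genes called) and without shLMO2-2 replicate 1 (ANKRD1, with 1023 of 14966). Between the hairpins the count was 0 at an adjusted p under 0.01, and 0 to 1 when a library was left out, since any 1 of the 6 hairpin libraries ended the CTGF call. In edgeR this contrast had 5 members at an unadjusted p under 0.05, and no share of all tested genes at that threshold is given here.

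The replicate numbers were not taken to pair the libraries, since the labels do not say that they do. Deviations from the group mean were correlated between libraries of different groups. The correlation was 0.427 to 0.623 for the 6 pairs of replicates 1 and 3, and -0.182 to 0.028 for the 3 pairs of replicate 2. Its mean was 0.325 over all 9 same-numbered pairs and -0.164 for other pairs. Deviations cancel within each group of 3, so the second mean largely follows from the first. Control replicate 2 was most like replicate 3 of both hairpins (0.539 and 0.46). The cancelling does not by itself make the same-numbered values positive. Replicates 1 and 3 shared part of their deviations across the groups, and replicate 2 did not. Whether the numbers mark a pairing of libraries was not tested. The main fit does not model any spread that libraries of a number share. The replicate block raised the genes called to 2214, 2377 and 257 from 1239, 1320 and 113 in the order used above. At an adjusted p under 0.01 they were 353, 390 and 46. Of 30 member fold changes 12 changed sign somewhere, none of them called and none past 0.0636 after the change. With plain totals in place of TMM the values were -0.0259 for CYR61 with shLMO2-1, -0.0037 for YAP1 with shLMO2-2 and -0.0049 for YAP1 between the hairpins. With a library left out, the ranges with shLMO2-1 were -0.007 to 0.105 (YAP1), -0.0543 to 0.0945 (CYR61), -0.1343 to 0.0636 (AMOTL1) and -0.0471 to 0.2031 (LATS2). With shLMO2-2 they were -0.0669 to 0.0632 (WWTR1), -0.2254 to 0.0072 (TEAD1), -0.0132 to 0.2469 (ANKRD1), -0.019 to 0.177 (AMOTL1), -0.0606 to 0.0288 (AMOTL2) and -0.229 to 0.0195 (LATS2), and between the hairpins -0.0332 to 0.0386 (YAP1). For the further lists, 269 of 342 counts under an alternative stayed within 1.5 times the reported count. These list alternatives were chosen after seeing the data. Depth limits LMO2, VGLL3, AXL and WISP2, which rest on few counts.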
